A study of Mus musculus with 24 samples.

Results

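The 10 genes described here encode the packaging proteins of oocyte and early embryo chromatin, followed through the maternal-to-zygotic transition of mice: the oocyte linker histone *H1foo*, the histone variants *H2afz*, *H3f3a* and *H3f3b*, and the histone chaperones *Npm2*, *Npm3*, *Nasp*, *Hira*, *Chaf1a* and *Chaf1b*. They were chosen by symbol and matched to Ensembl gene ids, 10 of 55471 annotated genes. SLIM-seq, a low-input m6A immunoprecipitation sequencing method, gave 3 IP and 3 input libraries from each of MII oocytes, embryos late in the 1-cell stage (L1C) and embryos late in the 2-cell stage (L2C), all wild-type B6D2F1 from superovulated females 8 weeks old, with the cumulus cells taken off by hyaluronidase. A second experiment compared L2C embryos injected as zygotes with Cas13d mRNA and 3 crRNAs against *Ythdc1*, a nuclear m6A reader (Ythdc1 KD, n = 3), with embryos given Cas13d mRNA and no crRNA (Ythdc1 NC, n = 3). Each library pools oocytes or embryos, and the labels do not say whether replicates came from separate collections, so the p-values measure the spread between these libraries.

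Chromatin of the mammalian oocyte carries its own linker histone, H1FOO, which is replaced by somatic linker histones during cleavage. At fertilization protamines leave the paternal genome and histones take their place, and nucleoplasmin, the product of *Npm2*, is known for its part in decondensing sperm chromatin. New nucleosomes receive H3.3 through the HIRA complex outside replication and canonical H3 through CAF-1 at the replication fork. CHAF1A and CHAF1B are the large and middle subunits of CAF-1, and NASP carries soluble H3-H4 and linker histones. H2A.Z, the product of *H2afz*, marks promoters and enhancers. H3.3 is encoded by both *H3f3a* and *H3f3b*, with the same protein sequence.

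SLIM-seq libraries held 11107421 to 39739950 estimated counts, and the KD libraries 3276715 to 5463868 counts in the merged table. Levels are given as CPM, the counts of a gene set against all counts of the library, after TMM scaling. They are shares of the RNA in a pooled library, so fewer copies of a transcript per embryo and more RNA from other genes cannot be told apart. The paper's methods name oligo-dT priming, and the length of poly(A) tails, on which such capture can depend, was not measured. All 7 oocyte markers were detected in every group, and their summed level ran from 8342 to 9853 CPM in MII inputs, from 4004 to 4458 in those of L1C embryos and from 586 to 602 in those of L2C embryos. The 7 markers of 2-cell embryos summed to 35.5 to 43.7 CPM in MII inputs and to 339 to 473 CPM in L2C inputs. Those of cumulus cells summed to at most 11.6 CPM in any input, with *Ptx3* at 0 in the inputs of all 3 stages. Of these 7 markers, 4 at MII, 5 at L1C and 4 at L2C had more than 3 counts in every input of the stage. From MII to L2C all 7 oocyte markers fell, while 6 of the 7 markers of 2-cell embryos rose and *Tcstv1* fell (log2 -0.47, edgeR adjusted p = 0.01). Within that span *Zp2* (0.64, adjusted p = 0.002) and *Bmp15* (0.28, adjusted p = 0.04) rose from MII to L1C, and *Zp3* rose (1.15, adjusted p = 3.7e-06) and *Duxf3* fell (-3.98, adjusted p = 2e-10) from L1C to L2C.

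Between the inputs of the stages, *H1foo* fell 110-fold from MII to L2C and *Npm2* 3.45-fold, whereas *H2afz* and *Chaf1b* were far higher there than at MII. From MII to L1C 4 of the 10 genes rose (*H3f3a*, *Npm2*, *Chaf1a*, *Chaf1b*) and 2 fell (*H1foo*, *Hira*), in the quasi-likelihood test of edgeR at a Benjamini-Hochberg adjusted p under 0.05. Of all 19903 genes tested, 31.9% rose and 24.3% fell in that interval. An alternative made after seeing the data added the counts of copied or overlapping genes. With it *Hira* rose instead (log2 3.39, edgeR adjusted p = 6e-11). *H2afz* (-0.46, adjusted p = 0.0049) and *Npm3* (-0.54, adjusted p = 0.029) were then called lower. From L1C to L2C 4 rose (*H2afz*, *Nasp*, *Hira*, *Chaf1b*) and 4 fell (*H1foo*, *Npm2*, *H3f3b*, *Chaf1a*), against 44.1% and 38.8% of all genes tested. With the counts added in that way *Hira* was not called here (0.02, edgeR adjusted p = 0.89). From MII to L2C 5 rose and 4 fell, against 47.5% and 37.1%. *Hira*, not called over this span, rose with the counts added (3.41, edgeR adjusted p = 2.7e-12). The median log2 change of the 10 genes from MII to L2C was 0.50, beside 0.40 over all genes tested and single members ran from -6.78 to 4.33. Scaling to library size alone raised the median of all genes by 0.14.

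**Figure D1:**
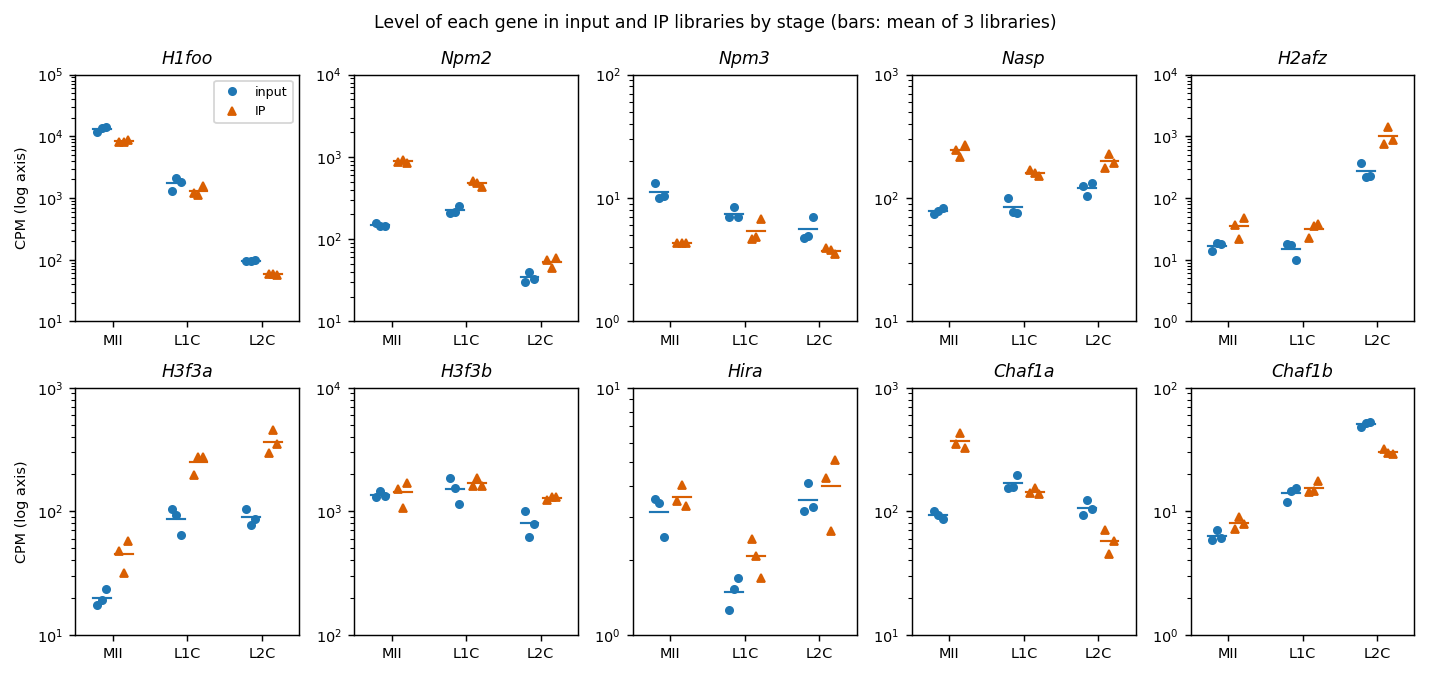
Level of the 10 genes in CPM (log axis) in each input (circles) and IP library (triangles) of MII oocytes, L1C and L2C embryos, with bars at the mean of 3 libraries. *H1foo* drops from 13302 CPM in MII inputs to 96.4 in L2C inputs, while *H2afz* climbs from 16.9 to 272 CPM.

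*H1foo* (chr6:115944938-115950236, GRCm38, plus strand) encodes the oocyte linker histone. Its level was 11933, 13742 and 14231 CPM in the 3 MII inputs, 1292, 2076 and 1794 in those of L1C embryos and 96.0, 95.7 and 97.5 in the L2C inputs. The stages lay in separate ranges, each far below the one before. The log2 change was -2.87 (SE 0.17, edgeR adjusted p = 6.8e-09) from MII to L1C and -3.92 (SE 0.17, adjusted p = 5.7e-11) from L1C to L2C, a 110-fold fall over both. In MII inputs this single gene took 0.931% to 1.14% of all counts and was second among 21974 protein-coding genes in counts per kb of exon, and in L2C inputs it was between positions 503 and 529. The 3 protein-coding genes whose log2(CPM + 1) was most like it over the 9 inputs, among 8445 with a mean of at least 10 CPM, were *Mia3* (Pearson r = 0.9995), *Ppp1r3d* (0.9994) and *Celsr1* (0.9992). The 9 points are 3 stages of 3 libraries, so r reflects the order of the stages.

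*Npm2* (chr14:70647302-70659244, minus strand) encodes the oocyte nucleoplasmin. Its level was 157, 145 and 143 CPM in MII inputs, 209, 214 and 254 in those of L1C embryos and 30.5, 39.6 and 33.1 in those of L2C embryos. It was therefore highest at L1C, with no overlap between stages. The log2 change was 0.69 (SE 0.13, edgeR adjusted p = 0.00055) from MII to L1C and -2.48 (SE 0.14, adjusted p = 6e-10) from L1C to L2C. *Npm3* (chr19:45747734-45749591, minus strand), a nucleoplasmin found in many tissues, was low throughout, at 10.0 to 13.2 CPM in MII inputs, 6.97 to 8.44 in those of L1C embryos and 4.74 to 6.99 in those of L2C embryos. It fell from MII to L2C by 0.68 on the log2 scale (SE 0.20, adjusted p = 0.0065). From MII to L1C its change of -0.50 missed the threshold (SE 0.20, adjusted p = 0.053) although the 2 ranges did not overlap, and it was called without L1C input replicate 2 (-0.60, adjusted p = 0.045) and by DESeq2 (-0.56, adjusted p = 0.034).

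*Nasp* (chr4:116601052-116627941, minus strand) stood at 73.8, 78.0 and 83.7 CPM in MII inputs, 100.0, 76.6 and 75.2 in those of L1C embryos and 124, 103 and 133 in those of L2C embryos. Only the L2C libraries lay above the rest. The log2 change was 0.18 (SE 0.14, edgeR adjusted p = 0.29) from MII to L1C and 0.75 (SE 0.14, adjusted p = 0.00016) from L1C to L2C.

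Of the variants, *H2afz* (chr3:137864487-137866922, plus strand) gave the steepest rise of the 10 genes. Its inputs held 14.0, 18.8 and 17.9 CPM at MII, then 17.8, 17.3 and 9.93 at L1C, and then 373, 218 and 223 at L2C. MII and L1C overlapped, and every L2C library was more than 10 times above both. The log2 change was -0.08 (SE 0.24, edgeR adjusted p = 0.8) from MII to L1C and 4.41 (SE 0.26, adjusted p = 9.1e-10) from L1C to L2C. These counts are shared with copies: *Gm8203*, a processed pseudogene, and *Tmcc1*, a longer gene, each hold a stretch at least 95% identical to the coding sequence of *H2afz* over at least 100 bases. Both rose between L1C and L2C (edgeR adjusted p = 6.3e-12 and 2.9e-12), *Gm8203* from 10.4 to 352 CPM and *Tmcc1* from 39.9 to 863 CPM in inputs (mean, n = 3). How the reads split between the 3 genes cannot be read from the counts. Summed with its copies, an alternative added after seeing the data, *H2afz* fell from MII to L1C by 0.46 (adjusted p = 0.0049).

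**Figure D2:**
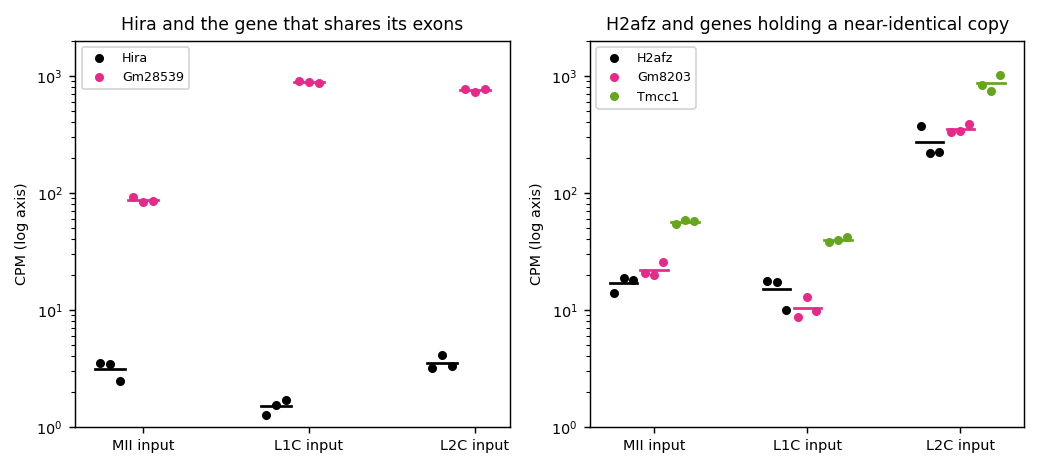
Input levels in CPM (log axis) of *Hira* with *Gm28539*, which shares exons with it, and of *H2afz* with 2 genes that hold a near-identical copy, by stage, with points for libraries and bars for the mean of 3. *Gm28539* lies between 83.6 and 899 CPM, above *Hira* in every input, and all 3 genes of the other panel are highest at L2C.

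The H3.3 genes could be told apart by their reads although they encode the same protein of 136 residues. Their coding sequences of 411 bases differ at 95 positions (76.9% identity), and the longest run they share is 23 bases. The first 90 coding bases show how densely the differences lie, with the differing bases in capitals (GRCm38 and GENCODE M21, *H3f3a* at chr1:180811837-180811926 and *H3f3b* at chr11:116023920-116024009, both on the minus strand):
H3f3a: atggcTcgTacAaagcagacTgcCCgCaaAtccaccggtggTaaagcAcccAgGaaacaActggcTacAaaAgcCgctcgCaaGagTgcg
H3f3b: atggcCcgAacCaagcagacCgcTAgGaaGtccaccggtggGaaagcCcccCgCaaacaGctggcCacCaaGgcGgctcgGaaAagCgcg

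*H3f3a* (chr1:180800832-180813943) was at 17.6, 19.0 and 23.3 CPM in MII inputs, 104, 93.9 and 63.9 in those of L1C embryos and 105, 77.8 and 87.1 in those of L2C embryos. The rise fell between MII and L1C, and the L1C and L2C ranges overlapped. The log2 change was 2.22 (SE 0.19, edgeR adjusted p = 3.6e-07) in the first interval and 0.28 (SE 0.18, adjusted p = 0.15) in the second, or 0.42 by DESeq2 (adjusted p = 0.047). *H3f3b* (chr11:116021912-116027962) was far more abundant, at 1300, 1457 and 1331 CPM in MII inputs, 1869, 1537 and 1147 in those of L1C embryos and 1008, 620 and 790.5 in those of L2C embryos. Its L2C libraries lay below all others. The log2 change was 0.24 (SE 0.18, adjusted p = 0.28) from MII to L1C and -0.67 (SE 0.18, adjusted p = 0.0032) from L1C to L2C. The net change from MII to L2C of -0.43 (adjusted p = 0.036) was not called without L2C input replicate 2 (-0.29, adjusted p = 0.14), L2C input replicate 3 (-0.43, adjusted p = 0.083), MII input replicate 2 (-0.39, adjusted p = 0.098) or MII input replicate 3 (-0.46, adjusted p = 0.052), by DESeq2 (-0.35, adjusted p = 0.096) or with library size alone (-0.29, adjusted p = 0.17).

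Per kb of exon, *H3f3a* made up 1.23% ± 0.20 (SD, n = 3) of H3.3 mRNA in MII inputs, 4.66% ± 0.24 in those of L1C embryos and 8.77% ± 0.77 in those of L2C embryos. The ranges of the 3 stages did not overlap, and each pair of stages gave p = 0.10 in a two-sided exact permutation test, the smallest that 3 libraries against 3 can give. Annotated copies of *H3f3a* at 18 other places held 12.7% of its own level in the inputs, most of it on *H3f3c*.

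**Figure D3:**
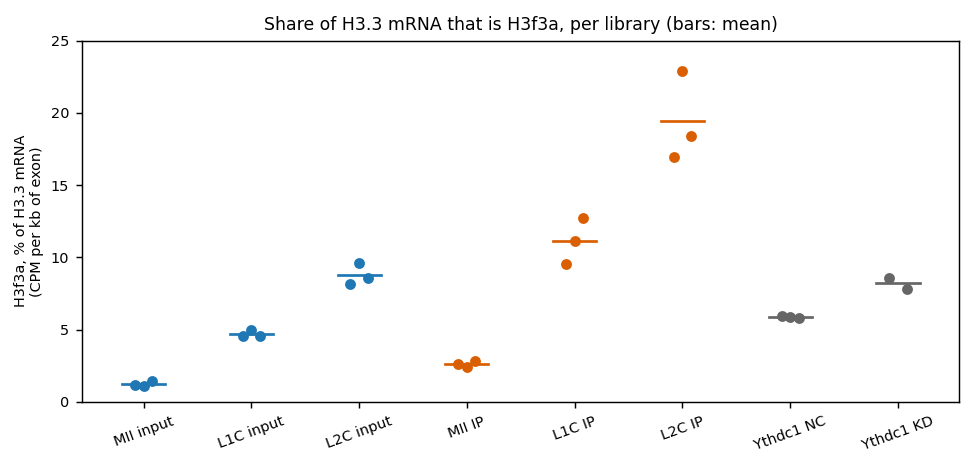
Share of H3.3 mRNA that comes from *H3f3a*, in percent of the CPM per kb of exon of *H3f3a* and *H3f3b*, with 1 point for each library and bars at the mean. In inputs the share climbs from 1.10% to 1.46% at MII to 8.13% to 9.63% at L2C, and in IP libraries of L2C embryos it reaches 17.0% to 22.9%.

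*Hira* (chr16:18877037-18970309, plus strand) encodes the H3.3 chaperone of the HIRA complex. It held 2.48 to 3.53 CPM in MII inputs, 1.26 to 1.70 in those of L1C embryos and 3.17 to 4.10 in those of L2C embryos, from 26.2 to 134 estimated counts a library. On these values it fell from MII to L1C by 0.99 (log2, SE 0.27, edgeR adjusted p = 0.0063) and rose from L1C to L2C by 1.47 (SE 0.26, adjusted p = 0.00012). Another annotated gene on the same strand, *Gm28539*, overlaps 79211 bases of the gene and 2778 bases of its exons, and it held 86.8, 889 and 759 CPM in the inputs of the 3 stages (mean, n = 3). With both genes summed, the change from MII to L1C was 3.39 (adjusted p = 6e-11), in the opposite direction, and the change from L1C to L2C was 0.02 (adjusted p = 0.89). The direction for *Hira* therefore turns on which gene the shared reads are given to, and its values are uncertain.

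Both CAF-1 subunits among the 10 genes rose from MII to L1C, whereas *Rbbp4*, a partner of theirs outside the 10, was called lower (log2 -1.18). *Chaf1a* (chr17:56040439-56072289, plus strand) was at 100.5, 93.2 and 86.9 CPM in MII inputs, 153, 158 and 198 in those of L1C embryos and 93.6, 124 and 104 in those of L2C embryos. *Chaf1b* (chr16:93883901-93906115, plus strand) was at 5.90, 7.07 and 6.03 CPM, then 11.8, 14.6 and 15.4, then 47.9, 51.8 and 52.7. *Chaf1b* thus climbed at each stage with no overlap, whereas *Chaf1a* was highest at L1C. *Chaf1b* rose by 1.22 on the log2 scale (SE 0.16, edgeR adjusted p = 2.5e-05) and then by 2.11 (SE 0.16, adjusted p = 1.1e-08), 10-fold from MII to L2C. *Chaf1a* rose by 0.95 (SE 0.14, adjusted p = 7.8e-05) and then fell by 0.42 (SE 0.14, adjusted p = 0.014). That fall was not called by DESeq2 (-0.27, adjusted p = 0.11), nor without L1C input replicate 3 (-0.30, adjusted p = 0.067) or L2C input replicate 1 (-0.33, adjusted p = 0.067). From MII to L2C *Chaf1a* was called higher (0.53, SE 0.14, adjusted p = 0.0034) although the libraries overlapped. Of its 8854 exonic bases 4648 overlap exons of *Ubxn6*, on the opposite strand, which held 40.3, 10.9 and 31.4 CPM in the inputs of the 3 stages (mean, n = 3), and the 2 genes were not tested as a sum.

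Set against each other per kb of exon, *H1foo* led in MII inputs at 11076 CPM per kb ± 1008 (SD, n = 3), followed by *H3f3b* at 458 ± 27.9 and *Npm2* at 144 ± 7.30. *Chaf1a*, *Nasp*, *H2afz* and *Npm3* came next, at 9.43 to 10.6, and neighbours among these 4 overlapped. *H3f3a*, *Chaf1b* and *Hira* stood below them with no overlap between neighbours. In L2C inputs *H3f3b* (271 ± 65.2) and *H2afz* (153 ± 49.6) led and overlapped each other, and *H1foo* came after them at 80.2 ± 0.81. *Hira* was lowest at all 3 stages, at 0.24 to 0.57 CPM per kb. Its place is uncertain, since it rests on how reads shared with *Gm28539* were split. Estimated counts include intronic reads, so levels per kb of exon are approximate.

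The IP libraries show how much of each RNA the m6A antibody held relative to the input of the stage, on a scale that is relative to the other RNAs. *Npm2*, *Nasp*, *H2afz* and *H3f3a* were enriched at all 3 stages and *H1foo* was depleted at all 3, with *Chaf1a* going from enriched at MII to depleted at L2C. The calls of *H1foo* at L1C and of *H2afz* at MII and L1C were lost when certain single libraries were left out. At MII 5 of the 10 genes were higher and 2 lower in the IP (edgeR, adjusted p under 0.05), against 17.7% and 21.0% of 21950 genes tested. At L1C 4 were higher and 1 lower, against 15.8% and 18.2%, and at L2C 5 were higher and 4 lower, against 22.0% and 22.0%. The median log2 IP/input of the 10 genes was 0.70, 0.31 and 0.42 at the 3 stages, beside 0.00, 0.07 and 0.09 over all genes tested. Scaling to library size alone raised the median of all genes by 0.20, 0.30 and 0.25 in that order, and the share of all calls that were higher went from 45.7%, 46.5% and 50.0% to 61.7%, 70.9% and 67.6%. Values below are relative to the TMM scale.

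**Figure D4:**
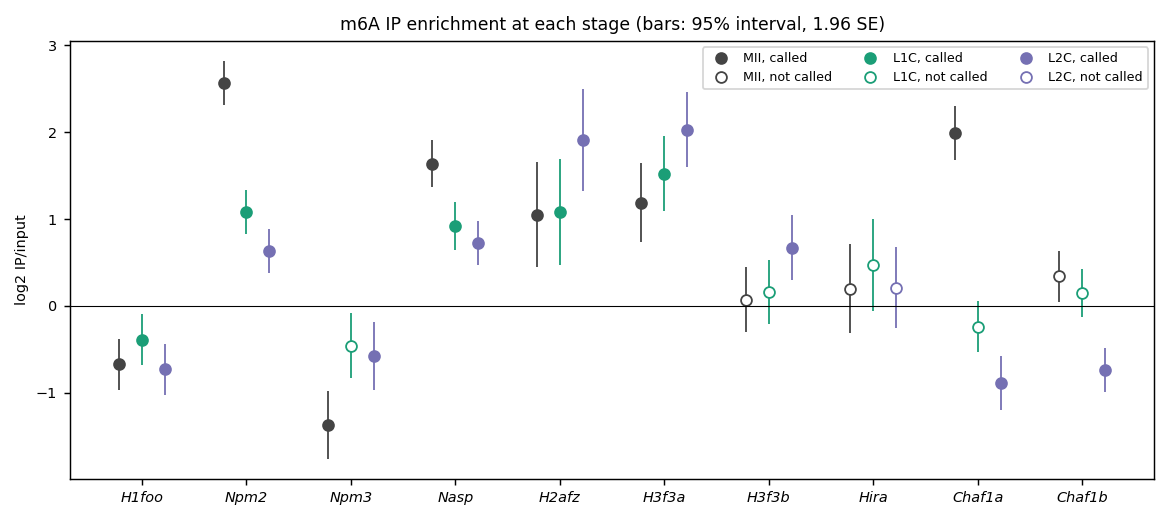
log2 IP/input of the 10 genes at MII, L1C and L2C from the fit of all 18 libraries, with bars for 95% intervals, filled where called at an adjusted p under 0.05 and open where not. *Npm2* steps down from 2.57 to 0.63 and *Chaf1a* crosses from 1.99 to -0.89, while *H1foo* stays between -0.73 and -0.39.

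The sequence GGACT, a form of the motif in which m6A is most often placed, was looked for on the sense strand of the representative GENCODE M21 mRNA of each gene. *H1foo* and *H3f3b* hold no GGACT, as do 13.2% of 21812 mRNAs. The other 8 hold 1 to 10, with 10 in *Hira*, 4 each in *H2afz* and *Chaf1b*, 3 in *H3f3a* and 1 each in *Npm2*, *Npm3*, *Nasp* and *Chaf1a*. The order of these counts is not that of the IP values below. The median over all mRNAs was 1.02 per kb. Within 200 bases on either side of the stop codon, the motif lies in *Npm3*, *H2afz*, *H3f3a* and *Hira* but not in *Npm2*, *Chaf1a* or *H3f3b*, and it lies in 38.6% of 16936 mRNAs with a window of that size. The mRNAs of *H1foo*, *Nasp* and *Chaf1b* end less than 200 bases after the stop codon and have no such window. The match nearest to the stop codon is printed here for the 5 genes enriched at MII, since their enrichment is described next, with the motif in capitals, in GRCm38:
Npm2, coding sequence, chr14:70649501-70649525, minus strand: tttcggctcaGGACTggctcaggac
Nasp, coding sequence, chr4:116611118-116611142, minus strand: agcaataccaGGACTgaatgaagat
H2afz, 3' UTR, chr3:137866464-137866488, plus strand: tattatctcaGGACTctaaatattc
H3f3a, coding sequence, chr1:180810154-180810178, minus strand: aaattgctcaGGACTtcaaaacaga
Chaf1a, 3' UTR, chr17:56068474-56068498, plus strand: ctattgctggGGACTcagggaaagg
In *H2afz* the A of the motif lies 29 bases after the end of the stop codon and in *Chaf1a* 936 bases after it, and in *H3f3a* it lies at position -178 counted from the same base. A match is a description of the sequence. The libraries do not resolve where in an RNA the antibody bound.

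*Npm2* was the most enriched of the 10 genes at MII. Its IP libraries held 878, 926 and 849 CPM at MII against 143 to 157 in the inputs, 515, 487 and 431 at L1C against 209 to 254, and 55.4, 45.0 and 59.4 at L2C against 30.5 to 39.6. IP lay above input in every library of a stage, by less at each stage. The log2 IP/input was 2.57 (SE 0.13, edgeR adjusted p = 4.3e-11) at MII, 1.08 (SE 0.13, adjusted p = 1.9e-06) at L1C and 0.63 (SE 0.13, adjusted p = 0.00052) at L2C. Its step from L1C to L2C was not called in edgeR (-0.45, adjusted p = 0.12) but was by DESeq2 (-0.50, adjusted p = 0.039). *Xpo7*, on the same strand, overlaps the gene by 4999 bases but its exons by 39, and had a log2 IP/input of -1.79 at MII.

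*Nasp* held 247, 217 and 271 CPM in MII IPs, with 150 to 168 at L1C and 176 to 226 at L2C. Its log2 IP/input was 1.64 (SE 0.14, edgeR adjusted p = 1.7e-08), 0.92 (SE 0.14, adjusted p = 3e-05) and 0.72 (SE 0.13, adjusted p = 0.00027) at the 3 stages. Here too the IP and input ranges were apart at each stage and closest at L2C.

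The variants *H2afz* and *H3f3a* were enriched at each stage with IP libraries that spread widely. *H2afz* held 37.0, 21.4 and 46.8 CPM in MII IPs, 22.6, 35.5 and 37.5 in L1C IPs and 761, 1416 and 878 in L2C IPs, all above the inputs of the stage. Its log2 IP/input was 1.05 (SE 0.31, edgeR adjusted p = 0.011), 1.08 (SE 0.31, adjusted p = 0.0099) and 1.91 (SE 0.30, adjusted p = 4.6e-05). At MII the call was lost without MII IP replicate 3 (0.79, adjusted p = 0.073) or MII input replicate 1 (0.93, adjusted p = 0.052), and at L1C without L1C input replicate 3 (0.86, adjusted p = 0.063). *Gm8203* and *Tmcc1*, which share its sequence, had values from 0.49 to 0.89 at the 3 stages. The IP of *H3f3a* held 47.6, 31.4 and 57.1 CPM at MII, then 198, 275 and 277 at L1C, and then 296, 457 and 348 at L2C. Its log2 IP/input was 1.19 (SE 0.23, adjusted p = 0.00036), 1.52 (SE 0.22, adjusted p = 2.8e-05) and 2.03 (SE 0.22, adjusted p = 9.5e-07).

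*H3f3b* had lower values than *H3f3a* at each stage. At MII its log2 IP/input was 0.07 (SE 0.19, edgeR adjusted p = 0.84), and it was 0.16 (SE 0.19, adjusted p = 0.56) at L1C, where IP and input overlapped. At L2C it was 0.67 (SE 0.19, adjusted p = 0.0068), with IPs of 1233, 1307 and 1313 CPM above all 3 inputs. Without L2C input replicate 2 the value was 0.50 (adjusted p = 0.051). The share of *H3f3a* in H3.3 mRNA was accordingly higher in IPs than in inputs at each stage, at 2.60% ± 0.18 (SD, n = 3), 11.1% ± 1.6 and 19.4% ± 3.11. The difference of the IP/input of these 2 genes was not tested gene against gene.

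*H1foo* was lower in the IP at every stage. Its IPs held 8118, 8212 and 8798 CPM at MII, below all inputs, 1216, 1135 and 1574 at L1C, within the range of inputs for 1 library, and 59.5, 58.0 and 56.6 at L2C. The log2 IP/input was -0.67 (SE 0.15, edgeR adjusted p = 0.0013) at MII, -0.39 (SE 0.15, adjusted p = 0.047) at L1C and -0.73 (SE 0.15, adjusted p = 0.00069) at L2C. The L1C call was lost without L1C IP replicate 1 (-0.39, adjusted p = 0.10), L1C IP replicate 2 (-0.30, adjusted p = 0.18), L1C input replicate 2 (-0.24, adjusted p = 0.26) or L1C input replicate 3 (-0.37, adjusted p = 0.12), and with scaling to library size alone (-0.10, adjusted p = 0.64). A block for replicates (-0.38, adjusted p = 0.08) and a fit of only the libraries compared (-0.40, adjusted p = 0.15) ended it too. *Npm3* was depleted at MII, where its IPs held 4.31 to 4.34 CPM against 10.0 to 13.2 in inputs, a log2 of -1.37 (SE 0.20, adjusted p = 1.7e-05). At L1C it was -0.46 (SE 0.19, adjusted p = 0.073), or -0.65 (adjusted p = 0.025) without L1C IP replicate 3. At L2C its -0.58 (SE 0.20, adjusted p = 0.021) lost the call without L2C IP replicate 3 (-0.54, adjusted p = 0.076) or L2C input replicate 3 (-0.39, adjusted p = 0.15), with library size alone (-0.33, adjusted p = 0.16) or with no filter on low counts (-0.63, adjusted p = 0.054). With a block for replicates it was not called either (-0.56, adjusted p = 0.057).

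*Chaf1a* changed sides. Its IPs held 351.5, 435 and 328 CPM at MII, above inputs of 86.9 to 100.5, then 140, 153 and 139 at L1C, just below inputs of 153 to 198, and 70.7, 45.2 and 57.6 at L2C, below inputs of 93.6 to 124. The log2 IP/input was 1.99 (SE 0.16, edgeR adjusted p = 1e-08), -0.24 (SE 0.15, adjusted p = 0.26) and -0.89 (SE 0.16, adjusted p = 0.00016). With library size alone the L1C value was 0.07. *Ubxn6*, which shares exonic bases with it, was at 5.37, 7.01 and 20.8 CPM in the IPs of the 3 stages (mean, n = 3). Its log2 IP/input of -2.91, -0.62 and -0.59 ran the other way. *Chaf1b* was at 0.34 (SE 0.15, adjusted p = 0.078) at MII, 0.15 (SE 0.14, adjusted p = 0.45) at L1C and -0.74 (SE 0.13, adjusted p = 0.00019) at L2C, where its IPs of 29.1 to 32.1 CPM lay below inputs of 47.9 to 52.7. With library size alone *Chaf1b* was called higher at MII (0.58, adjusted p = 0.0033) and L1C (0.45, adjusted p = 0.012), and *Hira* at L1C (0.77, adjusted p = 0.027). *Hira* had values of 0.20, 0.47 and 0.21 with IP and input overlapping at each stage (adjusted p = 0.59, 0.2 and 0.5), and summed with *Gm28539* it was -1.12 at L1C (adjusted p = 6.3e-07) and -1.0 at L2C (adjusted p = 1.9e-06).

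With thresholds that the study set for an m6A-tagged RNA, a log2 IP/input above 0, an unadjusted p under 0.05 and more than 1 count in the inputs, but applied to the edgeR fit of all libraries and without the study's condition on single replicates, the oocytes had 6 of the 10 genes tagged, L1C embryos 4 and L2C embryos 5. The extra gene at MII was *Chaf1b*, at an unadjusted p = 0.033 in edgeR, which DESeq2 also called (0.41, adjusted p = 0.022). Over all 21950 genes tested, the unadjusted edgeR p was below 0.05 for 10083 at MII, 9364 at L1C and 11236 at L2C. These totals hold both directions, and how many of them met the other thresholds is not given here.

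Differences of IP enrichment between stages were tested directly, as the interaction of stage and kind of library. All called differences among the 10 genes were losses: *Npm2*, *Nasp* and *Chaf1a* from MII to L1C, *Chaf1b* from L1C to L2C, and these 4 from MII to L2C. Over all genes tested, 3.13% were higher and 4.21% lower from MII to L1C, 5.00% and 4.47% from L1C to L2C, and 11.1% and 9.21% from MII to L2C. From MII to L1C, 42.6% of all calls were higher, or 53.3% with scaling to library size alone. The log2 IP/input of *Chaf1a* changed by -2.22 (SE 0.22, edgeR adjusted p = 3.5e-06) from MII to L1C and by -2.88 (SE 0.22, adjusted p = 9.2e-08) to L2C, a 7.34-fold loss. That of *Npm2* changed by -1.49 (SE 0.18, adjusted p = 2.2e-05) and by -1.94 (SE 0.18, adjusted p = 6e-07). That of *Nasp* changed by -0.72 (SE 0.19, adjusted p = 0.025) and by -0.92 (SE 0.19, adjusted p = 0.0018). The first of these was not called without any 1 of 7 of the 12 libraries, L1C IP replicates 2 and 3, L1C input replicate 1, MII IP replicates 1 and 3, and MII input replicates 1 and 2, where it was -0.72, -0.69, -0.58, -0.72, -0.65, -0.68 and -0.72 with adjusted p from 0.054 to 0.068. Nor was it called with a block for replicates (-0.71, edgeR adjusted p = 0.064). *Chaf1b* changed by -0.89 (SE 0.19, adjusted p = 0.0068) from L1C to L2C and by -1.09 (SE 0.20, adjusted p = 0.00069) from MII to L2C.

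Further changes lay near the threshold. *Chaf1a* changed by -0.65 from L1C to L2C (95% interval -1.08 to -0.22, edgeR adjusted p = 0.068), and was called without L1C input replicate 3 (-0.78, adjusted p = 0.04) or L2C IP replicate 1 (-0.82, adjusted p = 0.024), and by DESeq2 (-0.71, adjusted p = 0.012). *Npm3*, depleted at MII, moved toward the input by 0.91 from MII to L1C (0.37 to 1.45, adjusted p = 0.052) and by 0.79 from MII to L2C (0.24 to 1.33, adjusted p = 0.052). The first was called by DESeq2 (0.88, adjusted p = 0.02), and the second without L2C input replicate 3 (0.98, adjusted p = 0.021).

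The gains of the variants from MII to L2C did not pass: 0.84 for *H3f3a* (95% interval 0.22 to 1.46, edgeR adjusted p = 0.067), 0.85 for *H2afz* (0.02 to 1.68, adjusted p = 0.17) and 0.60 for *H3f3b* (0.09 to 1.12, adjusted p = 0.12). For *H3f3a* the value was called without L2C IP replicate 1 (0.97, adjusted p = 0.044) or MII IP replicate 3 (1.03, adjusted p = 0.033), and for *H3f3b* without L2C input replicate 1 (0.79, adjusted p = 0.042). With no filter on low counts *H3f3a* (0.79, adjusted p = 0.0044) and *H2afz* (0.79, adjusted p = 0.0038) were called. *H1foo* differed by -0.06 (-0.48 to 0.35, adjusted p = 0.92). In simulated counts this fit found 49 of 200 genes with a 2-fold difference of IP/input between MII and L1C, none in the wrong direction. Most of the simulated differences between these stages were therefore missed. That share was not measured for the genes described here, whose SE for this change ran from 0.18 (*Npm2*) to 0.43 (*H2afz*). Among them *Nasp* was called at -0.72 (edgeR adjusted p = 0.025), while *Npm3* at 0.91 was not (adjusted p = 0.052). The change from MII to L2C was not simulated.

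In the KD experiment the targeted gene was checked first. *Ythdc1* was at 523, 541 and 519 CPM in KD and 1080, 1098 and 994 in NC, log2 -1.0 (SE 0.06, edgeR adjusted p = 1.3e-10). The merged table holds 46.4% of the annotated genes and ends on chromosome 7, where the counts of KD replicate 3 end too. *H1foo*, *Nasp*, *H2afz* and *H3f3a* were compared in it over 6 libraries, with 7433 genes tested, of which 33.5% were higher and 37.4% lower in KD. Scaling to library size alone lowered the median of these genes by 0.12 (shift -0.12). The other 6 genes were compared over KD replicates 1 and 2 and the 3 NC libraries, with 17074 genes tested across the whole annotation, of which 30.5% were higher and 36.4% lower. The 2 sets of CPM values are scaled to different totals and are not set against each other.

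Of the 4 genes in the table, *H3f3a*, *H2afz* and *Nasp* were higher in KD and *H1foo* was lower. *H1foo* was at 84.1, 96.3 and 76.7 CPM in KD and 129, 134 and 157 in NC, a change of -0.71 on the log2 scale (SE 0.11, edgeR adjusted p = 8.1e-06). *H3f3a* was at 1667, 1740 and 1708 CPM in KD and 1001, 998 and 1027 in NC, a change of 0.76 on the log2 scale (SE 0.06, adjusted p = 1.3e-09). The libraries of a group were tight and the groups well apart. *Nasp* was at 2678, 2515 and 2749 CPM against 1934, 1942 and 1712, a change of 0.51 on the log2 scale (SE 0.06, adjusted p = 8.1e-07). *H2afz* was at 5756, 6701 and 6286 CPM against 4785, 4572 and 4914, a change of 0.39 on the log2 scale (SE 0.06, adjusted p = 9.9e-06). In these exon counts *Gm8203* was at 0 in all 6 libraries, while *Tmcc1* held 127 to 195 CPM and was higher in KD (0.26, SE 0.11, adjusted p = 0.042). Reads that aligned to more than one place were left uncounted under the settings used, so *H2afz* may be undercounted. KD and NC did not overlap for any of the 4 genes, and no change reached 1 on the log2 scale.

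Of the 6 genes beyond the table, *Chaf1b*, *Hira* and *H3f3b* were higher in KD and *Npm2* was lower. *Npm2* was at 49.3 and 51.9 CPM in KD and 79.1, 78.9 and 84.9 in NC, a change of -0.68 on the log2 scale (SE 0.10, edgeR adjusted p = 1.8e-05). *Chaf1b* was at 27.1 and 36.0 CPM against 13.7, 16.1 and 18.2, a change of 0.99 on the log2 scale (SE 0.15, adjusted p = 3.4e-05), the largest of the 10 in size. Its partner *Chaf1a* was at 17.6 and 24.4 CPM against 21.3 to 23.4, with overlap and a log2 of -0.08 (95% interval -0.37 to 0.20, adjusted p = 0.63). Reads in exons shared with *Ubxn6* were left uncounted, so this value rests on the rest of its exons. *Hira* was at 11.5 and 13.3 CPM against 7.38, 9.11 and 5.43, a change of 0.74 on the log2 scale (SE 0.21, adjusted p = 0.0056), on 49 to 124 counts a library. *Gm28539* was at 0 there in all 5 libraries, although it held 759 CPM in the SLIM-seq inputs of L2C embryos, and reads in exons shared by both genes were left uncounted, so *Hira* here rests on the rest of its exons. *H3f3b* was at 5840 and 6713 CPM against 5223, 5211 and 5447, a change of 0.25 on the log2 scale (SE 0.07, adjusted p = 0.0034), which was 0.15 without KD replicate 2 (adjusted p = 0.059) and 0.23 without NC replicate 2 (adjusted p = 0.085). *Npm3* held 13 to 35 counts a library and gave 0.23 (95% interval -0.51 to 0.96, adjusted p = 0.61).

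**Figure D5:**
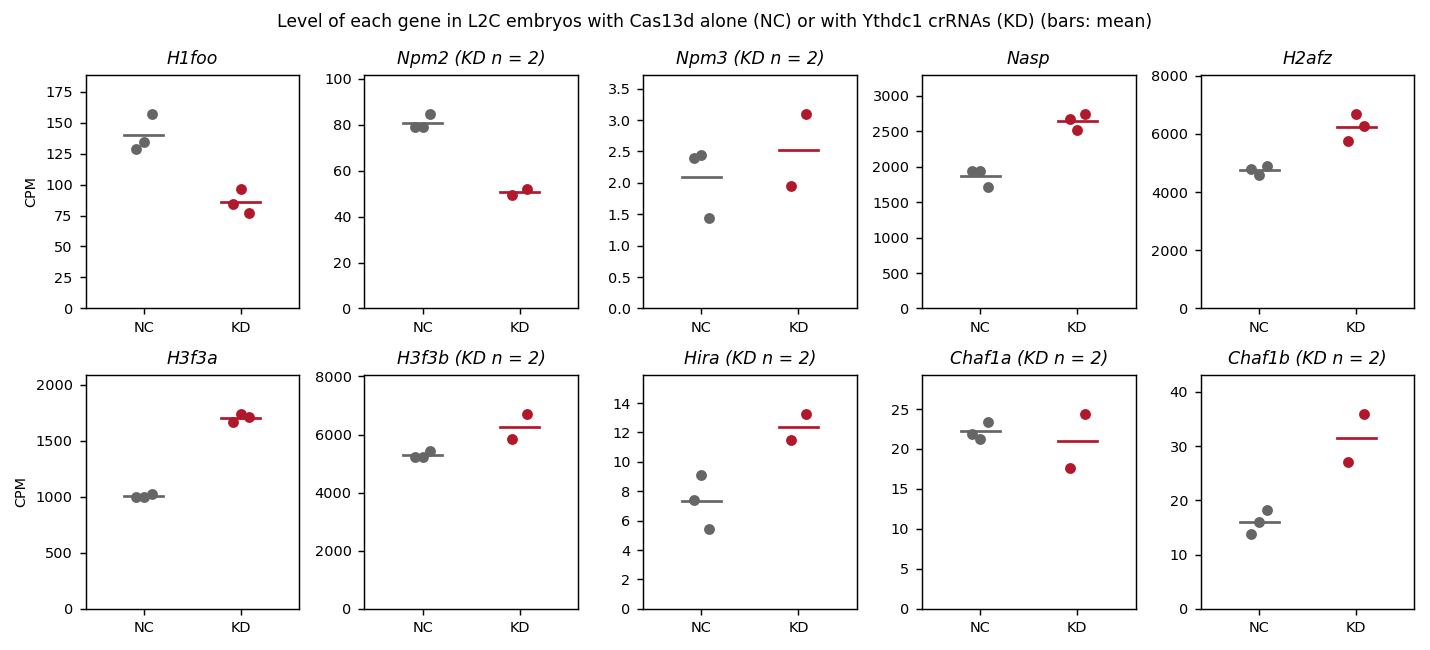
Level of the 10 genes in CPM in L2C embryos injected with Cas13d mRNA alone (NC) or with Ythdc1 crRNAs (KD), with 1 point for each library and bars at the mean. *H1foo* and *Npm2* sit lower in KD, *Nasp*, *H2afz*, *H3f3a*, *H3f3b*, *Hira* and *Chaf1b* sit higher, and only *Npm3* and *Chaf1a* overlap between groups.

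The share of *H3f3a* in H3.3 mRNA per kb was 7.81% and 8.58% in the 2 KD libraries and 5.77% to 5.90% in NC, with p = 0.10 in a two-sided exact permutation test, the smallest that 2 libraries against 3 can give. Most stage markers moved with the KD group. The 7 oocyte markers summed to 671 to 730 CPM in KD and 1429 to 1559 in NC, and the 7 markers of 2-cell embryos to 271 to 310 CPM in KD and 957 to 1000 in NC, with none of either list at 0 in a whole group. Of the oocyte markers 5 were lower in KD, *Zp3* was higher (0.48, edgeR adjusted p = 2.1e-05) and *Mos* was not called (-0.16, adjusted p = 0.58). All 6 markers of 2-cell embryos that were tested were lower. The 2 oocyte transcripts *H1foo* and *Npm2* were lower in the same libraries. The part of these marker differences in the values of the 10 genes was not tested.

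Beside the 10, 39 other genes of histone supply and exchange were counted. From MII to L1C 5 of the 38 tested rose and 25 fell in the inputs, with a median log2 change of -0.60 beside 0.16 over all genes, of which 31.9% rose and 24.3% fell. From L1C to L2C 21 rose and 13 fell, beside 44.1% and 38.8% of all genes, with a median of 1.17 beside 0.17. From MII to L2C 17 rose and 14 fell, beside 47.5% and 37.1%, with a median of 0.28 beside 0.40. Of the variants, *H2afv*, the second H2A.Z gene, rose by 3.23 (SE 0.16, edgeR adjusted p = 9.4e-11), *Cenpa*, the centromeric H3, by 2.28 (SE 0.17, adjusted p = 1e-08) and *H2afx* by 1.85 (SE 0.18, adjusted p = 1.9e-07), while *H2afy*, the macroH2A1 gene, fell by 3.48 (SE 0.25, adjusted p = 6.9e-09). *Set*, a histone chaperone of the NAP family, rose by 5.09 (SE 0.14, adjusted p = 8.5e-13). Both genes of the other H3.3 chaperone complex fell, *Daxx* by 2.79 (SE 0.13, adjusted p = 5.8e-11) and *Atrx* by 1.47 (SE 0.18, adjusted p = 1.9e-06). Of the CENP-A loading genes *Oip5* rose by 5.12 (SE 0.23, adjusted p = 5.3e-11) and *Mis18a* by 3.72 (SE 0.14, adjusted p = 1.2e-11).

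In the IP of oocytes 8 of the 39 genes were higher and 13 lower, in that of L1C embryos 7 and 12, and in that of L2C embryos 11 and 15. Over all genes 17.7% and 21.0%, 15.8% and 18.2%, and 22.0% and 22.0% were higher and lower in these IPs. None of those called higher reached a log2 IP/input of 1 at any stage. *Daxx* was depleted at all 3 stages (-2.36, -1.76 and -1.81, edgeR adjusted p at most 2.8e-09), as were *Srcap*, the ATPase that puts H2A.Z into chromatin (-2.12, -1.34 and -1.09), and *Ssrp1*, a subunit of the FACT chaperone (-1.52, -1.20 and -1.13). The somatic linker histone *H1f0* was lower in the IP at each stage (-1.52, -1.57 and -0.67), as *H1foo* was. Between MII and L2C, 6 of the 39 gained and 5 lost IP/input, beside 11.1% and 9.21% of all genes, the largest loss being that of *Ipo4*, an importin for histones (-1.32, SE 0.21, adjusted p = 0.00018).

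In the KD experiment 14 of the 17 tested list genes in the table were higher and 2 lower, beside 33.5% and 37.4% of all genes, and of the 20 tested beyond it 10 were higher and 4 lower, beside 30.5% and 36.4%. The median log2 change was 0.33 and 0.21, beside -0.06 and -0.09 over all genes. The FACT subunit *Ssrp1* (1.10, SE 0.09, edgeR adjusted p = 3e-09), *Atrx* (1.02, SE 0.07, adjusted p = 1e-09) and the H2A.Z exchange genes *Ruvbl2* (1.40, SE 0.13, adjusted p = 1.9e-08) and *Vps72* (-2.06, SE 0.12, adjusted p = 4.6e-11) were beyond 1 in size. The variants *H2afj* (1.15, SE 0.13, adjusted p = 2.2e-07) and *H2afy* (1.48, SE 0.51, adjusted p = 0.017) were beyond 1 too. *Vps72*, a chaperone for H2A.Z, was the only one of these 6 that was lower in KD, and it had fallen from MII to L2C as well (-2.93, SE 0.20, adjusted p = 5e-09).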

How the data were processed

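SLIM-seq inputs and IPs (9 each) and 6 knockdown libraries were taken as deposited. The authors made the SLIM-seq estimated counts with kallisto against whole gene spans of GRCm38, introns included, so reads in overlapping or copied genes are shared out by the model. The deposited TPM values from the same runs were not analysed. For the knockdown the authors trimmed with Trimmomatic, aligned with HISAT2 and counted exons with featureCounts 2.0.1, with no strand setting and without the options for reads that align to several places or overlap several genes, so such reads are left out of the deposited counts. The labels name a stranded kit and the methods an oligo-dT protocol. The merged table holds 25739 of 55471 genes.

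Estimated counts were rounded, filtered with filterByExpr, scaled by TMM and tested with the quasi-likelihood test of edgeR 4.0.16 (R 4.3.3), with Benjamini-Hochberg adjustment over all genes tested and a threshold of 0.05. SLIM-seq fits held all libraries of their kind, and IP/input and its change between stages came from the 18 libraries together. Copies were found with BLAST 2.17.0. Figures used matplotlib 3.10.9. All 10 members are named, and a selection of the other listed genes called with a log2 change above 1 in size in a comparison. Members, lists and tests were chosen with earlier results of these data known. Alternatives were DESeq2 1.42.0, library size alone, no filter, a replicate block, unadjusted p, a log2 threshold of 1, each library left out, only the libraries compared, the whole annotation and, added after seeing the data, copies summed. On simulated counts edgeR found 153 of 200 genes changed 2-fold between L1C and MII inputs and 158 of 200 in the merged knockdown table. In the 5 whole knockdown libraries it found 115 of 200. In each of these 0 were in the wrong direction. No 2 replicates agreed within sampling noise. Depth ran from 11107421 to 39739950 estimated counts in SLIM-seq and from 8696476 to 14500548 counts in the 5 whole knockdown libraries.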

Additional observations from a re-analysis of the deposited data

Results flagged for a closer look

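The log2 IP/input differed between stages for 4 of the 10 genes in the interaction test of edgeR. From MII to L1C the change was -1.49 for *Npm2* (adjusted p = 2.2e-05), -0.72 for *Nasp* (adjusted p = 0.025) and -2.22 for *Chaf1a* (adjusted p = 3.5e-06). The call for *Nasp* was lost without any 1 of 7 of the 12 libraries (adjusted p from 0.054 to 0.068) and with a block for replicates (-0.71, adjusted p = 0.064). From L1C to L2C it was -0.89 for *Chaf1b* (adjusted p = 0.0068). From MII to L2C it was -1.94 for *Npm2* (adjusted p = 6e-07), -0.92 for *Nasp* (adjusted p = 0.0018), -2.88 for *Chaf1a* (adjusted p = 9.2e-08) and -1.09 for *Chaf1b* (adjusted p = 0.00069). Each is a loss of IP relative to input at the later stage.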

How the results depend on the processing

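Of the 100 tests of single genes, 90 kept their direction and side of the threshold under DESeq2, 89 with library size alone, 94 with no filter on low counts and 96 with the replicate block. Correlations of deviations between same-numbered libraries ran from -0.217 to 0.451 for inputs and from -0.42 to 0.256 for IP and input. For KD and NC they ran from -0.053 to 0.096. Between libraries of other numbers they reached 0.557, 0.665 and 0.143, so the numbers gave no sign of pairs. With 3 libraries a group this cannot exclude pairing, and the paper states that inputs and IPs came from the same batches of RNA. With the replicate block, *H1foo* IP/input at L1C (-0.38, adjusted p = 0.08), *Npm3* IP/input at L2C (-0.56, adjusted p = 0.057) and the *Nasp* change from MII to L1C (-0.71, adjusted p = 0.064) lost their calls, and over all genes the higher and lower IP/input changes from L1C to L2C went from 1098 and 981 to 603 and 565, and the higher ones from MII to L1C from 686 to 380.

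Asking for a log2 change above 1, members called higher and lower were 2 and 1 from MII to L1C, 3 and 2 from MII to L2C, and 2 and 0 in the IP at L2C. Those called lower were 2 from L1C to L2C, 1 in the IP at MII, 0 in the IP at L1C and 0 for the IP/input change from L1C to L2C, and none was called in KD in either direction (0 and 0 in each gene set). Of all 21950 genes tested, that threshold left 1847 higher and 2657 lower in the IP at MII. At L1C it left 1425 and 1817, and at L2C 2410 and 2524. Members lower in the IP at L1C numbered 2 with copies summed or an unadjusted p, and 0 with library size alone, only the libraries compared or the replicate block. For the IP/input change from MII to L1C, 1 was higher under DESeq2, library size alone or an unadjusted p. From L1C to L2C 3 were lower under DESeq2 or an unadjusted p and 2 with library size alone, no filter or only the libraries compared, and 1 was higher with no filter. From MII to L2C 1 was higher with library size alone, 2 with no filter and 3 at an unadjusted p. With 1 library left out these counts ran from 0 to 2, 1 to 2 and 0 to 1 (lower in the IP at L1C, lower from L1C to L2C, higher from MII to L2C).

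Directions turned for *Hira* with copies summed (3.39 from MII to L1C, IP/input -1.12 at L1C and -1.0 at L2C, its changes -1.33, 0.12 and -1.21), and for its IP/input change from MII to L2C under DESeq2 (-0.06), no filter (-0.03), only the libraries compared (-0.16) and the replicate block (-0.03). They turned for *Chaf1a* IP/input at L1C with library size alone (0.07) and for the *H2afz* IP/input change from MII to L1C under DESeq2 (-0.0011) and only the libraries compared (-0.05). None of these was called in the main test except *Hira* from MII to L1C. With 1 library left out, uncalled values that changed sign ran from -0.22 to 0.13 (*H2afz*, MII to L1C), -0.07 to 0.24 and -0.01 to 0.33 (*H3f3b* IP/input at MII and L1C), -0.23 to 0.29 and -0.09 to 0.26 (*H2afz* and *H3f3b* IP/input change from MII to L1C), -0.23 to 0.07 (*Npm3*, L1C to L2C), -0.18 to 0.21 (*Hira*, MII to L2C), and in KD -0.12 to 0.54 (*Npm3*) and -0.32 to 0.15 (*Chaf1a*). Over all genes, library size alone gave 6372 higher and 2613 lower in the IP at L1C (main 3463 and 3988) and 7315 higher at L2C (main 4830), DESeq2 gave 1747 lower IP/input changes from L1C to L2C (main 981), and only the libraries compared gave 566 higher and 1687 lower there and 444 higher from MII to L1C. The cause was not tested.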
